A study of Mus musculus with 12 samples.

Results

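The genes described here build and run the cilium: the intraflagellar transport (IFT) trains and their motors, the BBSome, the transition zone, the inversin compartment, and a few proteins of the ciliary membrane and basal body. They were chosen by name from the listed rows, and all 52 were found among the 24421 genes of the count tables. By compartment there were 13 IFT-B, 6 IFT-A, 5 motor, 8 BBSome, 13 transition zone, 2 inversin compartment and 5 membrane or basal body genes. Polyadenylated RNA was sequenced from 2 tissues, liver and lung, of mice at birth that were either WT (*Man1a2*+/+) or null (*Man1a2*-/-). The null mice are homozygous for the Man1a2tm1.1Ahe allele, a germline deletion of exon 2 of the gene for a Golgi mannosidase that trims N-linked glycans, and they die of respiratory failure at birth. Both tissues were collected within an hour of birth from 3 mice of each genotype, which gave 12 libraries with 26759463 to 42914295 counted reads. The 52 genes together took 0.0303% to 0.0434% of the reads in liver and 0.0978% to 0.133% in lung.

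A cilium grows from a basal body and holds no ribosomes, so every protein in it has to be imported. IFT trains hold the IFT-B and IFT-A complexes. Kinesin-2 pulls the trains, with tubulin and other cargo, to the tip, and dynein-2 pulls them back to the base. The BBSome rides on the trains and moves membrane proteins out of the cilium. The transition zone is the gate at the base, and the inversin compartment is a segment of the shaft just above it. In liver the primary cilium is best known on cholangiocytes, the cells of the bile ducts, where loss of polycystins or fibrocystin gives cysts. The same machinery also builds the motile cilia of the airway, so in lung these genes report on both kinds.

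*Man1a2* itself was lower in the null libraries. Its level, as reads of the gene in 1000000 reads of the library after TMM scaling within a tissue (CPM), was 67.5, 40.7 and 52.5 in the 3 WT livers and 40.4, 36.8 and 38.7 in the 3 null livers. In lung it was 137, 99.5 and 141 in WT and 56.7, 64.3 and 66.3 in null. The genotypes did not overlap in either tissue, and the log2 fold change was -0.47 ± 0.17 (SE) in liver and -1.01 ± 0.18 in lung, with edgeR adjusted p of 0.0809 and 0.0614. DESeq2 called it in both tissues (adjusted p 0.0473 in liver and 0.000287 in lung), and without the library labelled null lung 1 edgeR called it in lung (-0.95 ± 0.16, adjusted p 0.00430). The counts cover the whole gene and so do not show the loss of exon 2.

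Of the null libraries, 2 stood apart from the rest. The library labelled null lung 1 correlated with the other lungs at 0.853 to 0.871 across genes, while other lung pairs reached 0.995. Its alveolar epithelial markers (Sftpc, Sftpb, Nkx2-1, Ager and Hopx) summed to 378 CPM, against 20952 to 28424 CPM in the other null lungs and 21165 to 25567 CPM in WT. These are the defining cells of lung, so that library goes against its label in part, although its airway secretory markers stood at 3778 CPM, within the range of the other 5 lungs. Its 5 muscle and heart markers summed to 22211 CPM, against at most 376 CPM in any other lung. Its 6 mesenchymal markers summed to 11863 CPM, against at most 2482 CPM in any other lung. Its 5 cell cycle markers summed to 452 CPM, against at most 165 CPM. Its 4 leukocyte and 4 endothelial markers summed to 147 and 666 CPM, against at least 1307 and 1600 CPM in any other lung. In the library labelled null liver 1 the same muscle markers summed to 3426 CPM, while the other 5 livers held 3.40 to 4.30 CPM. The 6 mesenchymal markers summed to 1580 CPM in null liver 1, against 479 to 618 CPM in the other livers. The part of any of these cells in the ciliary values was not tested. Hepatocyte markers were at 125108 to 186697 CPM in all 6 livers. Results are given with and without these libraries where the difference matters.

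Many ciliary genes are driven by RFX factors, which bind the X-box, an inverted repeat with up to 3 bases between its arms. The search used a fixed pattern for the arms, with a choice of bases at some positions, and allowed no other mismatch. RefSeq promoters (GRCm38.p6, 250 bases before to 50 bases after the start site) were matched by symbol to 47 of the 52 genes. An X-box was found on either strand in the promoters of 6 of these 47 genes (12.8%), and in 314 of the 17224 genes with a promoter overall (1.82%). Among promoters, each of the same length, the share was 6 of 52 for the ciliary genes (11.5%) and 1.60% for all. The 6 genes were *Ift57*, *Bbs1*, *B9d2* and all of *Tctn1*, *Tctn2* and *Tctn3*, the tectonic genes of the transition zone. Their matches, each a 30-base window with the X-box in capitals and shown because they are the only ones found among the 52 genes, read 5′ to 3′ on the strand of the gene as follows.
Ift57, chr16:49699199-49699228, plus strand: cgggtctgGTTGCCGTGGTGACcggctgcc
Ift57, chr16:49699226-49699255, plus strand: gccctgcgGTTGCCTGGTAACggtggggac
Tctn3, chr19:40612350-40612379, minus strand: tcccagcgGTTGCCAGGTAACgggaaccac
Tctn2, chr5:124598679-124598708, plus strand: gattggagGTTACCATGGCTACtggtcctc
Tctn1, chr5:122264411-122264440, minus strand: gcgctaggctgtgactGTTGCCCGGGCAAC
B9d2, chr7:25680788-25680817, plus strand: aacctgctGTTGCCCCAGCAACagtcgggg
Bbs1, chr19:4906605-4906634, minus strand: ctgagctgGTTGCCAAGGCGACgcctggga
The arms are 1 or 2 bases apart in all 7 windows. The X-boxes of *Ift57*, *Tctn2* and *Tctn3* were centred before the start site, and those of *Tctn1*, *B9d2* and *Bbs1* after it. A match is a description of these letters, and no binding was measured here.

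The first question was how the 52 genes differ between the tissues in WT. *Ift20*, *Ift43* and *Pkd2* were the most abundant per length in WT lung, and 41 of the 52 genes differed between WT lung and WT liver at an adjusted p under 0.05 and at least 1.2-fold (edgeR), 36 of them higher in lung. That comparison called 77% of all 15635 genes tested, 39.8% as higher in lung and 37.2% as lower, so the share of the 52 that was called (78.8%) was near that of all genes, while the share called higher in lung (69.2%) was above it. Their median log2 fold change, lung over liver, was 0.78, against 0.04 for all genes. In a bulk tissue, fewer cells of a type and less RNA per cell cannot be told apart. By compartment 6 of 13 IFT-B, 5 of 6 IFT-A, 5 of 5 motor, 6 of 8 BBSome, 11 of 13 transition zone and 3 of 5 membrane or basal body genes were higher in lung. With the replicate number as a block, 43 genes were called, *Ift57* and *Invs* being added.

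Levels per length, in CPM per kb of exon scaled over the 6 WT libraries together, ran from *Nphp4* and *Pkhd1* at the bottom to *Ift20* at the top. *Ift20*, which links IFT-B to the Golgi, stood at 31.4 ± 2.47 (SD, n = 3) in liver and 34.7 ± 0.859 in lung and did not differ by the test (log2 fold change 0.14 ± 0.09, adjusted p 0.156). All 5 motor genes were higher in lung, by 0.46 for *Dync2h1* to 1.40 for *Kifap3* on the log2 scale. The calls of *Dync2h1* and *Kif3b* were lost with the GC and length trend removed, and that of *Dync2h1* also without WT lung 1 or WT lung 2. Of the IFT-A genes 5 of 6 were higher there, led by *Ift43*, a small subunit of the complex, with 2.78 ± 0.597 in liver and 17.2 ± 0.394 in lung (log2 fold change 2.64 ± 0.15, adjusted p 2.93e-07). The sixth, *Ift140*, went the other way, with 6.55 ± 1.42 in liver and 1.54 ± 0.231 in lung (log2 fold change -2.09 ± 0.17).

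The polycystin genes and fibrocystin also parted. *Pkd2*, a calcium-permeable channel of the ciliary membrane, stood at 2.19 ± 0.287 in liver and 12.4 ± 0.336 in lung (log2 fold change 2.499 ± 0.11), and its partner *Pkd1* was higher in lung by 1.93 ± 0.16. *Pkhd1*, the fibrocystin gene of bile duct and kidney tubule, was lower in lung, with 0.215 ± 0.0155 in liver and 0.0445 ± 0.0165 in lung (log2 fold change -2.25 ± 0.29). The other genes lower in lung were *Cluap1* (-0.46 ± 0.12), *Bbs7* (-0.44 ± 0.15) and *B9d2* (-0.37 ± 0.12). None of these 3 was called with the GC and length trend removed, which kept 34 of the 41 calls and added 6, *Ift20* among them. *Bbs7* also lost its call without WT liver 2, WT lung 1 or WT lung 3, and *B9d2* without WT liver 3 or WT lung 3. Both inversin compartment genes missed the call, with log2 fold changes of 0.46 ± 0.20 for *Invs* and -0.28 ± 0.16 for *Nek8*.

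**Figure D1:**
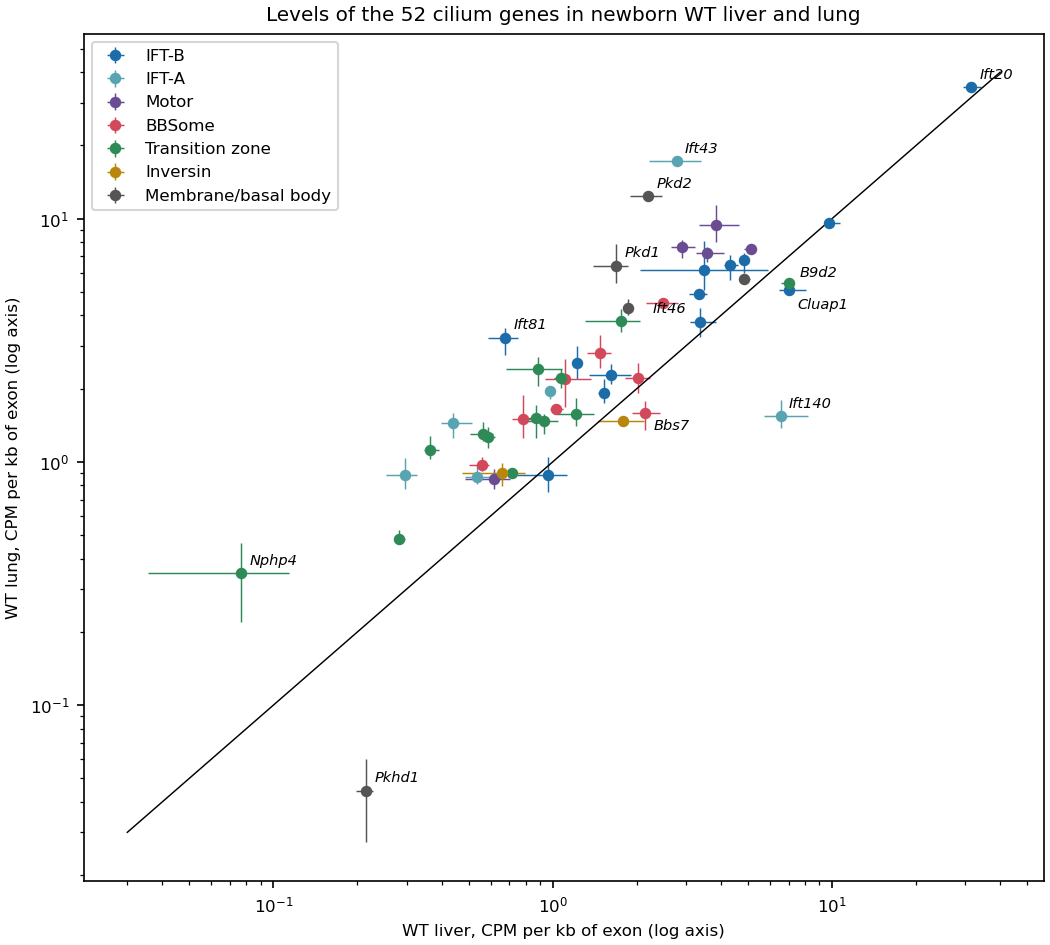
Mean level of each of the 52 genes in WT liver (x axis) and WT lung (y axis), in CPM per kb of exon on log axes, coloured by compartment, with bars from the lowest to the highest of 3 libraries; the line marks equal levels. Most points lie above the line, while Pkhd1 and Ift140 lie well below it.

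The next question was how these genes differ between null and WT liver. In null liver 10 of the 52 genes changed, 9 lower and 1 higher. *Traf3ip1*, *Ift74* and *Cluap1* of IFT-B, *Dync2h1* of dynein-2, *Bbs7* and *Arl6* of the BBSome pathway, *Rpgr* and *Cc2d2a* of the transition zone, and *Invs* fell, and their levels were 1.75-fold (*Dync2h1*) to 2.38-fold (*Invs*) lower than in WT. *Bbs4* of the BBSome rose 4.16-fold. The 10 genes are 19.2% of the 52, and the same call took in 26.9% of the 14343 genes tested in liver, so the count did not exceed the background of this comparison. DESeq2 called the same 10 genes and 29.8% of all genes. The direction was uneven: 17.3% of the 52 were called lower and 13.4% of all genes, while 1.92% of the 52 were called higher and 13.5% of all genes. Of the 52 log2 fold changes 38 were negative, with a median of -0.34, against 0.02 over all genes.

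All 3 null livers lay below all 3 WT livers for 19 of the 52 genes and above them for 2, *Bbs4* and *Bbs9*. That is 40.4% of the 52, while 46.6% of all genes tested did not overlap, 23.7% with null below and 22.9% with null above. All of *Kif3a*, *Kif3b*, *Kifap3* and *Dync2h1* were among the 19, which left 1 of the 5 motor genes with overlapping groups. *Traf3ip1*, *Ift74*, *Cluap1*, *Bbs7*, *Bbs4* and *Rpgr* were called whichever library was left out. Without WT liver 3 only these 6 were called, and the calls of *Dync2h1* and *Arl6* were also lost without WT liver 1, that of *Arl6* without null liver 2, and that of *Invs* without WT liver 2 or null liver 3. Without null liver 1, the library with muscle transcripts, 12 genes were called (11 lower), the same 10 with *Kifap3* and *Pkd2* added. That fit called 23.8% of all genes, 11.9% as higher and 11.9% as lower. *Ift74*, *Dync2h1*, *Invs*, *Cluap1* and *Rpgr* are also genes that the study picked from these libraries, so their calls are not independent of that choice.

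**Figure D2:**
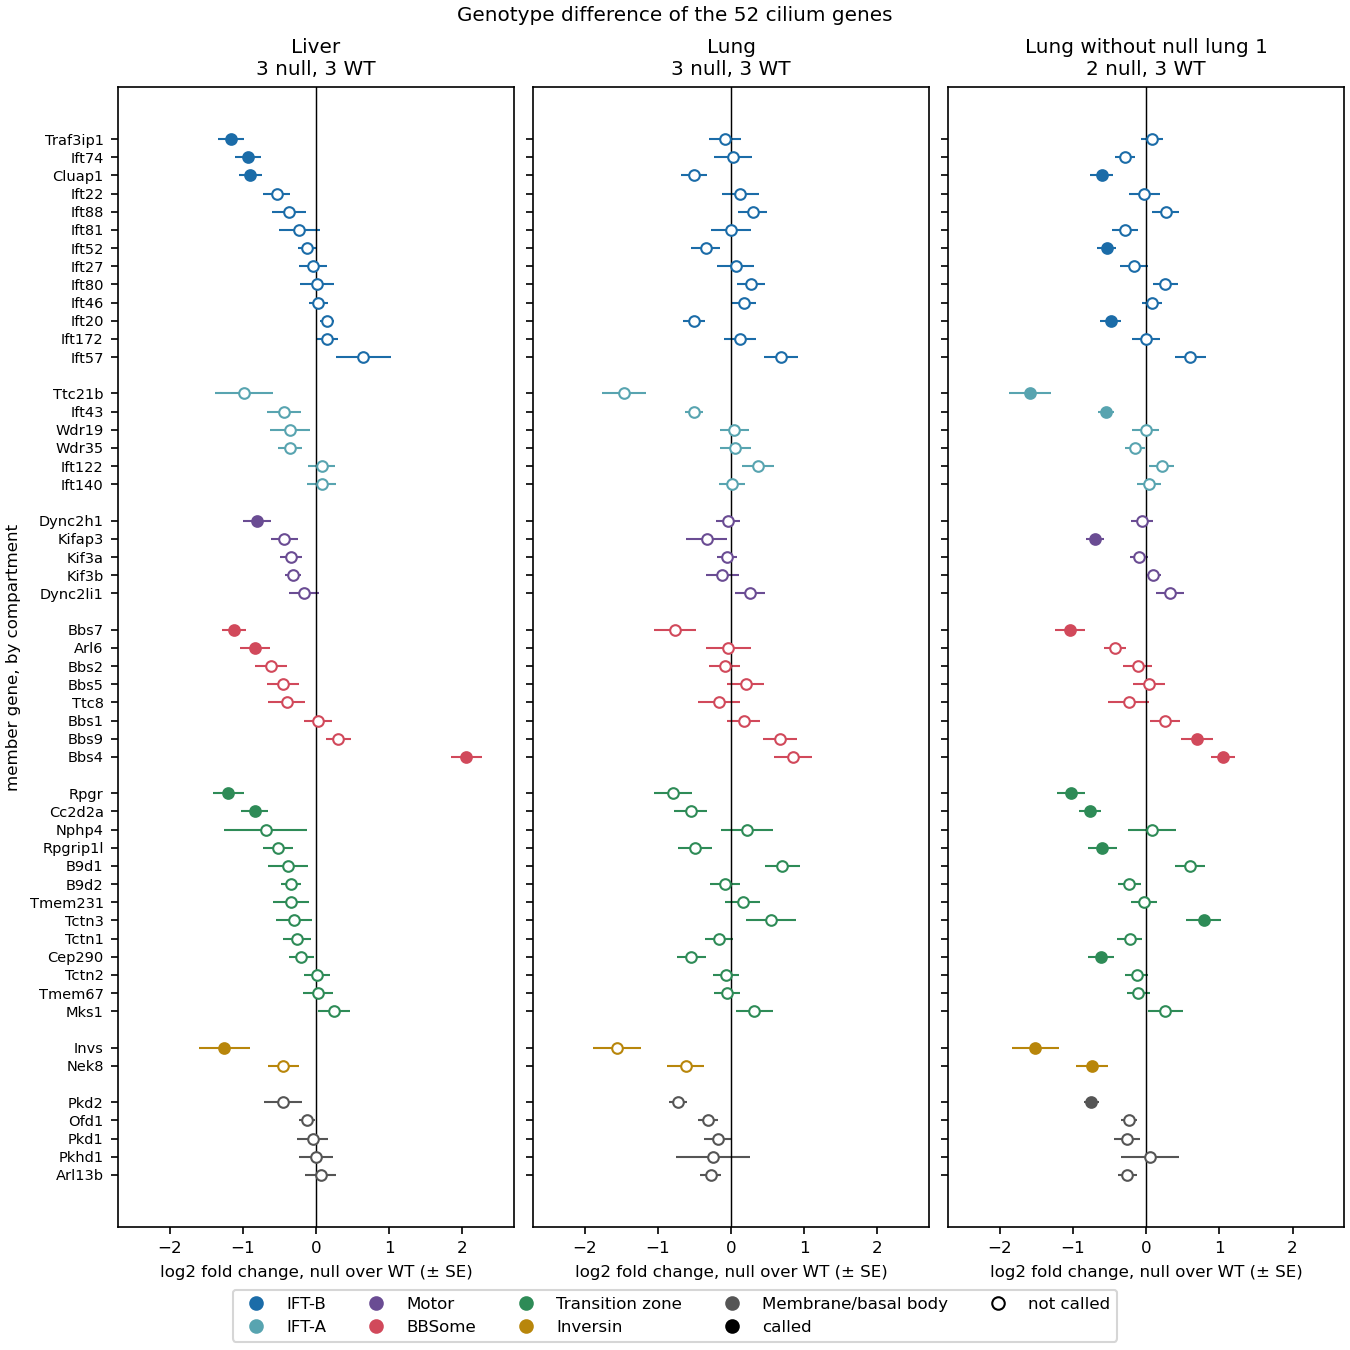
Log2 fold change of null over WT for each of the 52 genes (points, bars ± SE), by compartment, in liver (3 null and 3 WT libraries), in lung (3 and 3) and in lung without the library labelled null lung 1 (2 and 3); filled points were called. In liver 10 points are filled, with Bbs4 alone to the right; in lung none is filled with all libraries, and 17 without null lung 1.

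Of the 13 IFT-B genes, 3 fell in liver and none rose. *Traf3ip1*, an IFT-B subunit that binds microtubules, measured 12.5, 10.99 and 11.4 CPM in WT livers and 4.51, 6.46 and 4.63 CPM in null livers. Every null liver was far below every WT liver, and the log2 fold change was -1.16 ± 0.18 (adjusted p 0.00552). *Ift74*, which with *Ift81* holds tubulin, measured 9.17, 9.23 and 9.69 CPM in WT and 5.90, 4.75 and 4.11 CPM in null livers. The groups did not overlap, with null liver 1 the nearest to WT (log2 fold change -0.93 ± 0.17, adjusted p 0.00922). *Ift81* itself measured 2.95, 3.16 and 2.49 CPM in WT and 2.84, 2.94 and 1.56 CPM in null livers, and its groups overlapped. *Cluap1*, another IFT-B subunit, measured 10.7, 13.3 and 10.8 CPM in WT and 5.64, 6.09 and 6.998 CPM in null livers (log2 fold change -0.90 ± 0.16, adjusted p 0.00757), again with no overlap. It shares its locus with an annotated gene on the same strand (Gm20695) and another on the opposite strand, neither of which was analysed here, so the assignment of its reads is uncertain. The other 10 IFT-B genes had log2 fold changes from -0.54 (*Ift22*) to 0.65 (*Ift57*), and of these only *Ift22* had groups that did not overlap.

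No IFT-A gene was called in liver. The largest difference was that of *Ttc21b*, a subunit at the edge of the IFT-A complex, with 2.81, 3.44 and 2.67 CPM in WT and 1.93, 1.92 and 0.648 CPM in null livers. All null livers were lower, null liver 3 by the most, and the spread left an adjusted p of 0.103 (log2 fold change -0.98 ± 0.40). An annotated gene that overlaps *Ttc21b* (Gm13618) was not analysed here. The other 5 IFT-A genes ran from -0.43 (*Ift43*) to 0.08 (*Ift140*). Among the motors *Dync2h1*, the heavy chain of dynein-2, measured 8.40, 5.73 and 7.91 CPM in WT and 4.11, 3.95 and 4.54 CPM in null livers (log2 fold change -0.81 ± 0.19, adjusted p 0.0211). WT liver 2 was the lowest WT library and still stood above the null livers. The 3 kinesin-2 genes *Kif3a*, *Kif3b* and *Kifap3* were also lower in every null liver than in every WT liver, with log2 fold changes of -0.34, -0.31 and -0.43 and adjusted p of 0.120, 0.0648 and 0.116. Summed over the 5 motor genes, the level was 49.8 to 53.2 CPM in WT and 37.999 to 41.2 CPM in null livers.

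The BBSome genes and *Arl6* moved in both directions, 2 lower and 1 higher. *Bbs4*, a subunit that links the BBSome to the centriolar satellites, measured 4.80, 4.27 and 4.43 CPM in WT livers and 20.6, 13.4 and 22.3 CPM in null livers. Even the lowest null liver stood far above the WT livers, and the log2 fold change was 2.06 ± 0.21 (adjusted p 0.00220). *Bbs4* (chr9:59321990-59353508, minus strand, GRCm38) overlaps *Adpgk* on the opposite strand, and whether counting used the strand is not given in the sources used here. *Adpgk* measured 37.7 to 42.1 CPM in WT and 36.3 to 44.8 CPM in null livers (log2 fold change 0.06).

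*Bbs7*, of the BBSome core, went the opposite way with 8.24, 9.41 and 7.52 CPM in WT and 4.03, 3.87 and 3.66 CPM in null livers, tight groups far apart (log2 fold change -1.12 ± 0.16, adjusted p 0.00435). *Arl6*, the small GTPase that brings the BBSome to membranes, measured 3.82, 3.28 and 4.27 CPM in WT and 2.38, 1.87 and 2.14 CPM in null livers. Its groups did not overlap (log2 fold change -0.83 ± 0.21, adjusted p 0.0242). *Bbs2*, the partner of *Bbs7* in the core, had a log2 fold change of -0.61 ± 0.22 with null livers all lower and an adjusted p of 0.0752, while *Bbs1* and *Bbs9* had 0.03 ± 0.19 and 0.31 ± 0.17. Summed over the 8 genes, the level was 32.2 to 34.4 CPM in WT and 34.3 to 42.2 CPM in null livers. That sum holds the rise of *Bbs4* given above, so it does not describe the other genes. Of those, *Bbs7*, *Arl6* and *Bbs2* were lower in every null liver than in every WT liver, and *Bbs9* was higher.

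At the transition zone 2 of 13 genes fell. *Rpgr*, the retinitis pigmentosa GTPase regulator, measured 4.28, 4.89 and 4.61 CPM in WT and 2.44, 1.87 and 1.68 CPM in null livers, with no overlap (log2 fold change -1.20 ± 0.21, adjusted p 0.00778). It overlaps *Srpx* on the same strand, which was not called (log2 fold change 1.54, 0.17 without null liver 1). *Cc2d2a*, a Joubert syndrome gene of the gate, measured 5.05, 5.45 and 5.40 CPM in WT and 3.23, 2.51 and 3.14 CPM in null livers (log2 fold change -0.84 ± 0.18, adjusted p 0.0155). The WT livers were nearly equal and the null livers all lower. The other 11 genes ran from -0.69 (*Nphp4*) to 0.24 (*Mks1*), and *Nphp4* rested on as few as 4 reads in a library.

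*Invs*, the inversin gene, whose loss in mice reverses the left-right axis, measured 3.96, 6.59 and 5.81 CPM in WT and 1.45, 3.39 and 2.01 CPM in null livers. WT liver 1 and null liver 2 came nearest to each other without overlap (log2 fold change -1.25 ± 0.35, adjusted p 0.0343). Its neighbour *Tex10*, which overlaps it on the opposite strand, rose, with a log2 fold change of 0.67 (adjusted p 0.0184). *Nek8*, the kinase that inversin anchors, had -0.44 ± 0.22 and overlapping groups. Of the 5 membrane and basal body genes none was called. *Pkd2* had the largest difference, -0.45 ± 0.27, which became -0.83 ± 0.16 (adjusted p 0.0107) without null liver 1. That library held 17.4 CPM of *Pkd2*, within the WT range of 13.9 to 18.3 CPM, and the other null livers held 9.21 and 9.01 CPM. *Pkd1*, *Pkhd1*, *Ofd1* and *Arl13b* lay between -0.12 and 0.07.

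**Figure D3:**
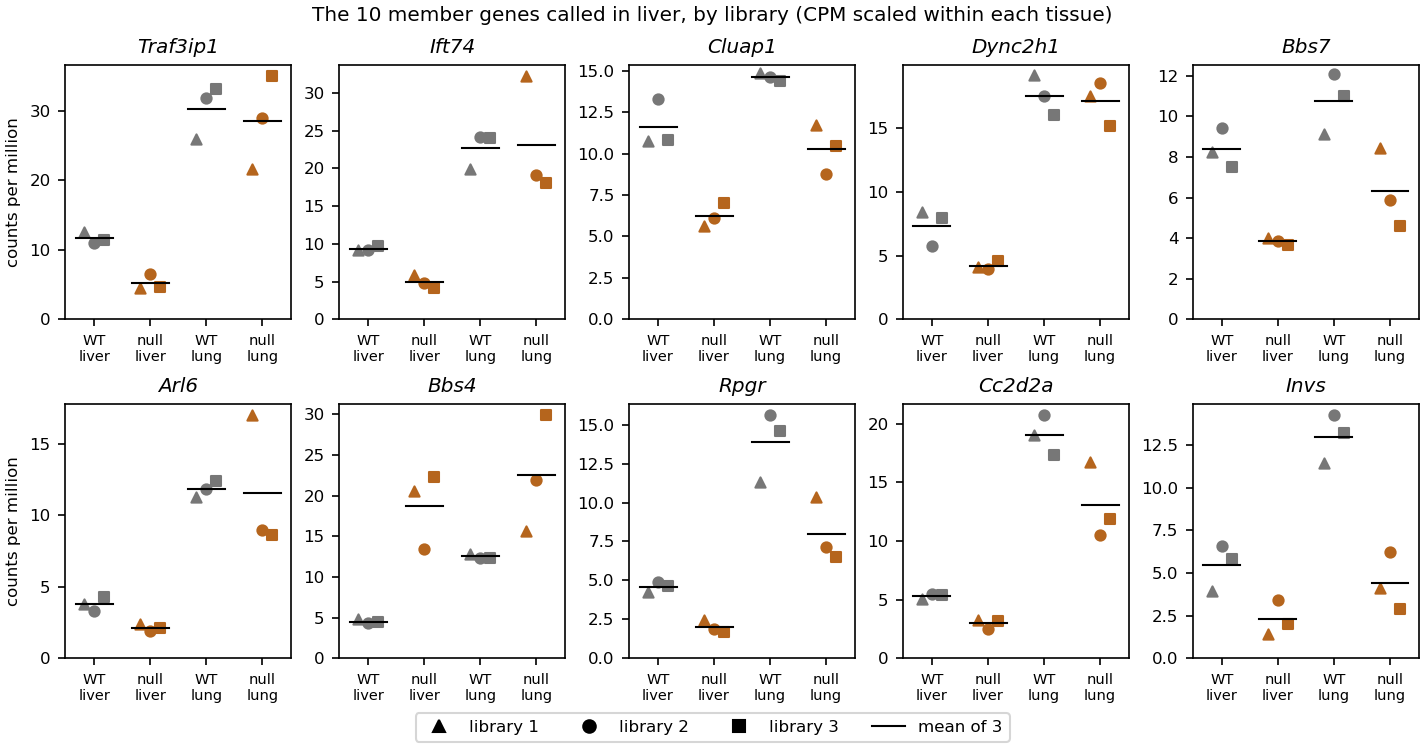
Level in each library of the 10 genes called in liver, in CPM scaled within each tissue, so that heights compare genotypes within a tissue and not tissues (y axes start at 0; symbols mark library numbers, lines the means of 3). The null livers lie below the WT livers in 9 panels and above them for Bbs4, at 13.4 to 22.3 CPM against 4.27 to 4.80 CPM.

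Further genes of the same machinery, 41 listed as companions of the 52, were counted in the same fits. In liver 39 were tested and 10 were called, 8 lower and 2 higher, 25.6% against 26.9% of all genes. The 3 chaperonin-like genes that fold and assemble the BBSome all fell. *Bbs10* measured 3.85, 3.47 and 2.93 CPM in WT and 1.16, 0.908 and 0.583 CPM in null livers (log2 fold change -1.94 ± 0.29, adjusted p 0.00515), the largest difference among the 39. *Bbs12* and *Mkks* had log2 fold changes of -1.35 ± 0.22 and -1.15 ± 0.19, and all 3 were called whichever library was left out. By contrast *Bbip1* and *Lztfl1*, a BBSome subunit and its regulator, measured -0.06 ± 0.15 and 0.03 ± 0.13 on the log2 scale.

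*Ttc30a1*, an IFT-B gene, fell (log2 fold change -1.45 ± 0.29) and is uncertain, since *Ttc30a2* and *Ttc30b* are nearly identical to it. The ciliary lipid phosphatase gene *Inpp5e* and *Fbf1* fell as well, with log2 fold changes of -0.58 ± 0.15 and -0.87 ± 0.18. *Iqcb1*, a partner of *Cep290* at the transition zone, rose by 0.74 ± 0.12, with 10.5, 10.7 and 9.35 CPM in WT and 16.5, 16.1 and 18.5 CPM in null livers. Leaving out WT liver 1 or WT liver 3 brought the companion calls to 5 and 4.

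Of the factors that drive ciliary genes, *Rfx2* rose in null liver, from 7.23, 7.21 and 7.70 to 11.4, 14.2 and 9.75 CPM (log2 fold change 0.68 ± 0.17, adjusted p 0.0233). The call held in 2 of the 6 fits with a library left out and was lost without any 1 of the WT livers or without null liver 2, at adjusted p of 0.0564 to 0.0779. *Rfx1* and *Rfx3* had 0.16 ± 0.18 and -0.14 ± 0.26, *Rfx4* had at most 1 read in any liver, and *Foxj1*, the switch for motile cilia, was near the limit of detection at 0.0267 to 0.421 CPM. The 10 called genes all had a promoter and none held an X-box in these 300 bases. This says only that the pattern searched is not in this window, and X-boxes that depart from it were not counted. The 6 genes with one ran from -0.34 (*B9d2*) to 0.65 (*Ift57*) on the log2 scale, none called.

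Markers of cell types were measured beside these genes. The 6 cholangiocyte markers summed to 96.6 to 122 CPM in WT and 87.5 to 165 CPM in null livers, and none of the 6 was called. The 5 cell cycle markers summed to 763 to 859.7 CPM in WT and 905 to 1340 CPM in null livers, and 4 of the 5 rose (*Mki67* by 0.63 ± 0.18). Of 4 endothelial markers 2 rose, with sums of 179.8 to 185 CPM in WT and 193 to 210.2 CPM in null livers. Among all genes tested in liver 26.9% were called, and 13.5% were called higher. The part of these cells in the ciliary differences was not tested.

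In lung none of the 52 genes was called with all 6 libraries. By edgeR 15 had an unadjusted p under 0.05, 28.8% of the 52 against 25% of the 15591 genes tested, and 0.327% of all genes were called. DESeq2 on the same libraries called 8 of the 52 (15.4%, against 15.1% of all genes): *Ttc21b*, *Invs*, *Rpgr*, *Pkd2*, *Cluap1* and *Ift43* as lower, *Bbs4* and *B9d1* as higher. Without the library labelled null lung 1, edgeR called 17 of the 52 (32.7%, against 37% of all genes), 14 lower (19% of all genes) and 3 higher (18% of all genes). No other library changed the count of 0. All null lungs lay below all WT lungs for 14 genes and above them for 4, 34.6% of the 52 against 36.1% of all genes (19.5% below and 16.6% above). By compartment the 14 were 2 IFT-B, 2 IFT-A, 1 BBSome and 4 transition zone genes, both inversin compartment genes, and *Pkd2*, *Ofd1* and *Arl13b* of the membrane and basal body.

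The largest difference in lung was that of *Invs*. It measured 11.4, 14.3 and 13.2 CPM in WT and 4.13, 6.24 and 2.88 CPM in null lungs, and every null lung was far below the WT lungs. The log2 fold change was -1.56 ± 0.33 (adjusted p 0.0761), and -1.51 ± 0.32 (adjusted p 0.00976) without null lung 1. *Nek8*, its partner, measured 9.40, 10.2 and 9.49 CPM in WT and 7.31, 7.08 and 4.56 CPM in null lungs, also without overlap (log2 fold change -0.62 ± 0.25, adjusted p 0.193, and 0.0338 without null lung 1). *Tex10*, on the strand opposite to *Invs*, had a log2 fold change of 0.56 and was not called.

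*Ttc21b* of IFT-A came next, with 18.4, 17.5 and 14.7 CPM in WT and 7.16, 7.39 and 3.85 CPM in null lungs (log2 fold change -1.46 ± 0.30, adjusted p 0.0742, and 0.00518 without null lung 1). Each null lung held less than any WT lung, as in liver. *Ift43* measured 35.05, 36.9 and 35.6 CPM in WT and 26.7, 24.7 and 24.3 CPM in null lungs (log2 fold change -0.51 ± 0.12, adjusted p 0.0911, and 0.00722 without null lung 1). *Pkd2* measured 161, 160.2 and 155 CPM in WT and 97.98, 102 and 87.1 CPM in null lungs. Both groups were tight, and null lung 1 sat among the null lungs (log2 fold change -0.73 ± 0.12, adjusted p 0.0585, and 0.00226 without null lung 1). Its partner *Pkd1*, with 171, 131 and 119 CPM in WT and 138, 103 and 131 CPM in null lungs, had overlapping groups.

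*Bbs4* was higher in null lung too, with 12.8, 12.4 and 12.3 CPM in WT and 15.6, 21.96 and 29.995 CPM in null lungs. Null lung 1 was the nearest to WT, and the log2 fold change of 0.85 ± 0.26 (adjusted p 0.129) became 1.05 ± 0.16 (adjusted p 0.00304) without it. *Adpgk*, on the opposite strand, measured 46.5 to 48.7 CPM in WT and 21.9 to 36.3 CPM in null lungs. *Bbs7* was again lower, with 9.12, 12.1 and 10.99 CPM in WT and 8.45, 5.87 and 4.58 CPM in null lungs (log2 fold change -0.77 ± 0.29, adjusted p 0.174, and 0.00796 without null lung 1). *Bbs9* measured 10.7, 14.8 and 9.89 CPM in WT and 17.998, 22.1 and 16.1 CPM in null lungs, so that every null lung stood above every WT lung. Its log2 fold change was 0.67 ± 0.23 (adjusted p 0.157, and 0.0424 without null lung 1).

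The transition zone held 4 genes lower in all null lungs: *Rpgr*, *Cc2d2a*, *Rpgrip1l* and *Cep290*. *Rpgr* measured 11.3, 15.6 and 14.6 CPM in WT and 10.4, 7.13 and 6.48 CPM in null lungs (log2 fold change -0.79 ± 0.26, adjusted p 0.143, and 0.00639 without null lung 1). *Srpx*, which overlaps it on the same strand, had a log2 fold change of 1.08. *Cep290*, a large protein of the Y-shaped links, measured 12.5, 13.8 and 13.2 CPM in WT and 9.97, 9.79 and 7.33 CPM in null lungs. It overlaps *4930430F08Rik* on the opposite strand, which had a log2 fold change of -0.94, not called, and -1.37 without null lung 1. *B9d1* was above WT in every null lung, with 4.07, 5.03 and 5.43 CPM against 8.98, 8.04 and 6.63 CPM, and its relative *B9d2* was not (log2 fold change -0.09 ± 0.20). *Tctn3* measured 17.4, 15.3 and 14.2 CPM in WT and 14.2, 19.3 and 34.6 CPM in null lungs, with null lung 3 highest by far and null lung 1 at the bottom of the WT range. Its log2 fold change was 0.54 ± 0.34 (adjusted p 0.360), and 0.79 ± 0.24 (adjusted p 0.0349) without null lung 1.

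Among the IFT-B genes *Ift57* had the largest difference in lung, with 18.3, 29.2 and 19.2 CPM in WT and 39.4, 36.9 and 30.7 CPM in null lungs (log2 fold change 0.68 ± 0.23, adjusted p 0.148). In liver its WT libraries ranged from 4.27 to 12.2 CPM, across the null range. *Ift20* measured 68.03, 66.3 and 65.5 CPM in WT and 45.6, 55.5 and 39.6 CPM in null lungs, all null lungs being lower (log2 fold change -0.51 ± 0.16), whereas in liver it had 0.15 ± 0.09. *Cluap1* was lower in every null lung (log2 fold change -0.51 ± 0.18, adjusted p 0.165, and 0.0194 without null lung 1). *Kifap3* had the largest difference among the motors, -0.33 ± 0.28, and its null lungs split: null lung 1 held 44.5 CPM, above every WT lung, and the other two 24.6 and 23.1 CPM, below them all. Without null lung 1 it was called, with a log2 fold change of -0.69 ± 0.12 (adjusted p 0.00532).

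**Figure D4:**
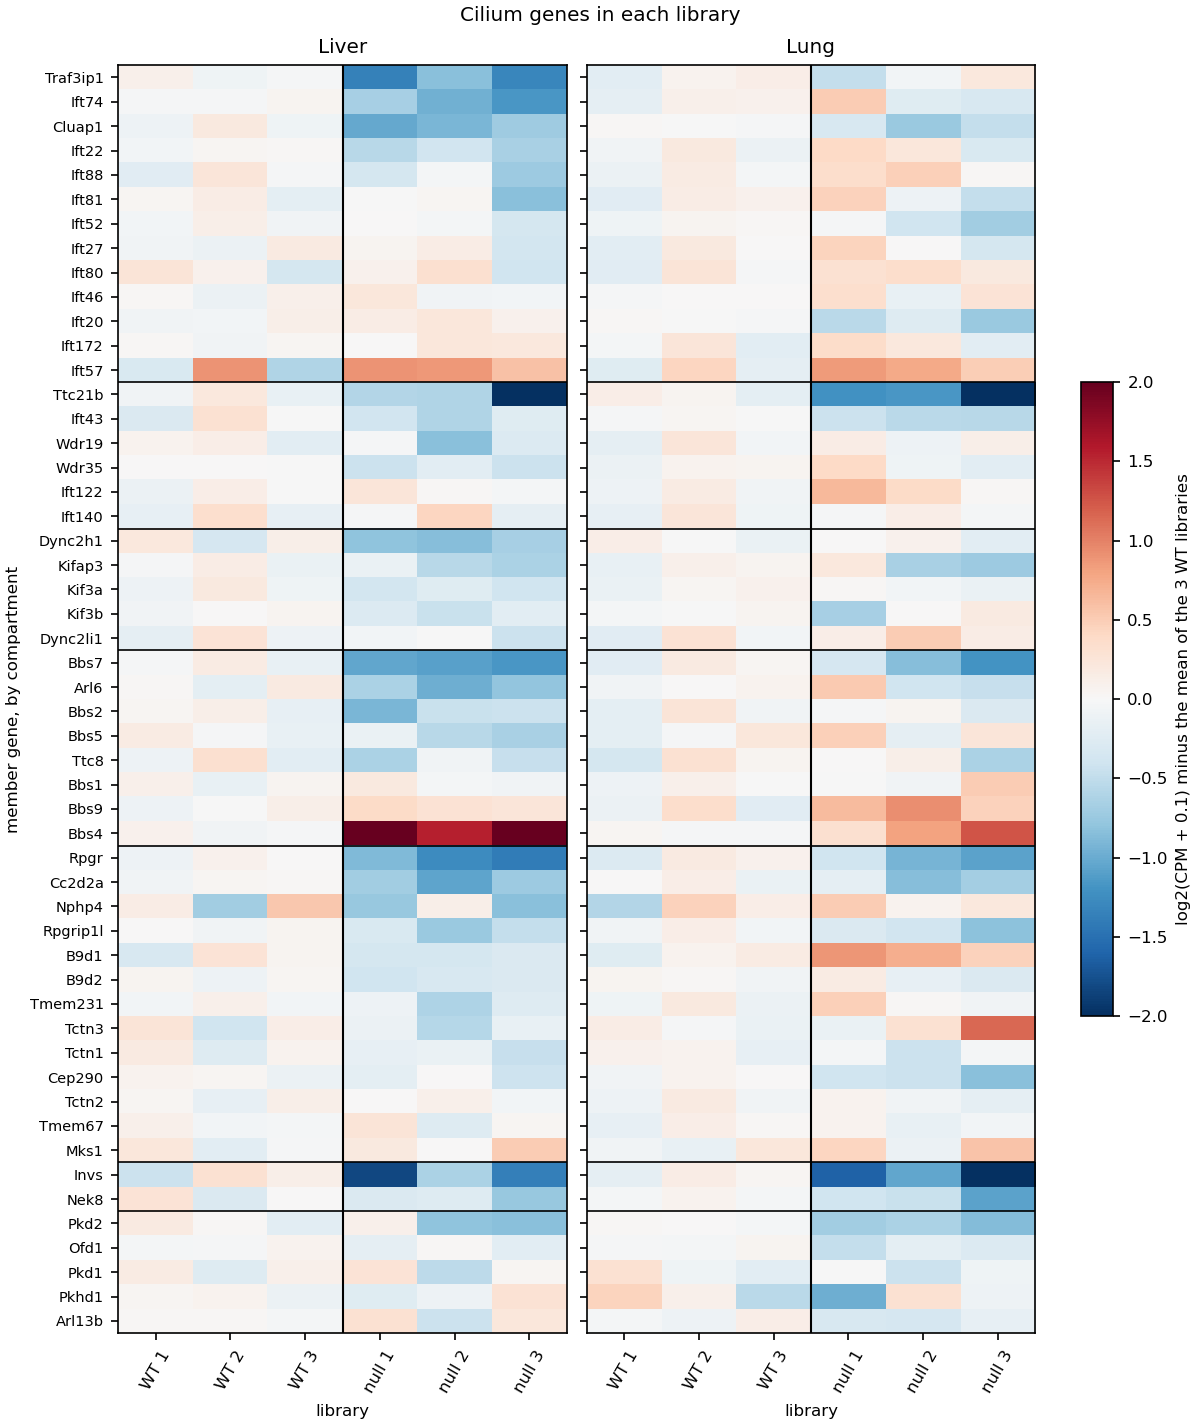
Level of each of the 52 genes in each library, as log2(CPM + 0.1) minus the mean of the 3 WT libraries of that tissue, in rows by compartment, red for higher and blue for lower, with colours capped at 2 in either direction. Invs, Ttc21b, Bbs7 and Rpgr are blue and Bbs4 red in all null columns of both tissues, while null lung 1 is red where the other null lungs are blue for Ift74, Arl6 and Kifap3.

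Of the 39 companions tested in lung, none was called with all libraries, 9 having an unadjusted p under 0.05. Those 9 compare with 25% of all genes. DESeq2 called 6 (15.4%, against 15.1% of all genes), and edgeR called 14 of 40 without null lung 1 (35%, against 37% of all genes). *Iqcb1*, which rose in liver, measured 15.4, 13.8 and 16.9 CPM in WT and 29.7, 31.9 and 32.7 CPM in null lungs (log2 fold change 1.03 ± 0.15, adjusted p 0.0541, and 0.00150 without null lung 1). With all libraries *Bbs10*, *Mkks* and *Bbs12* had log2 fold changes of -1.16 ± 0.30, -0.62 ± 0.44 and -0.60 ± 0.36, with adjusted p of 0.10020, 0.407 and 0.333. Null lung 1 held 23.5 CPM of *Mkks*, above every WT lung, and 4.09 CPM of *Bbs12*, within the WT range. Without it the values were -1.35 ± 0.25, -1.29 ± 0.14 and -0.99 ± 0.22, and all 3 were called.

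*Foxj1* measured 37.8, 70.4 and 66.99 CPM in WT and 51.6, 50.3 and 48.4 CPM in null lungs, with overlap. *Rfx2*, which rose in null liver, was lower in every null lung than in every WT lung. It measured 17.4, 18.2 and 17.1 CPM in WT and 14.1, 13.99 and 12.8 CPM in null lungs (log2 fold change -0.36 ± 0.15, edgeR adjusted p 0.199). The 9 markers of multiciliated cells, *Foxj1* included, summed to 73.3 to 135 CPM in WT and 139.5 to 173 CPM in null lungs. None of the 9 was called with all libraries, and 5 rose without null lung 1: the axonemal genes *Dnah5*, *Dnah9*, *Rsph1*, *Ccdc39* and *Cfap43*. The fit without null lung 1 called 18% of all genes higher. In liver the same 9 summed to 2.80 to 3.001 CPM in WT and 3.999 to 4.94 CPM in null livers. The part of multiciliated cells in the lung values was not tested.

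Whether the genotype difference itself differed between liver and lung was tested as an interaction over all 12 libraries. None of the 52 genes was called (edgeR), against 0.371% of the 16155 genes tested, and 7 had an unadjusted p under 0.05 (13.5% of the 52 against 13.9% of all genes). The largest was that of *Bbs4*, with a lung difference minus liver difference of -1.21 ± 0.34 on the log2 scale (adjusted p 0.166). *Traf3ip1*, lower in null liver, measured 25.9, 31.8 and 33.2 CPM in WT and 21.6, 28.9 and 34.99 CPM in null lungs. Its lung difference minus its liver difference was 1.07 ± 0.29 (adjusted p 0.146). DESeq2 called both *Traf3ip1* (adjusted p 0.0230) and *Bbs4* (adjusted p 0.0387), against 3.94% of all genes. Without null lung 1, edgeR called *Traf3ip1* alone, with 1.26 ± 0.24 (adjusted p 0.0191), against 5% of all genes, and without both null liver 1 and null lung 1 the call stayed, against 5.18%. Of the companions, *Rfx2*, higher in null liver and lower in null lung, had -1.04 ± 0.22 with all 12 libraries. DESeq2 called it (adjusted p 0.000734) and edgeR did not (adjusted p 0.0771).

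*Ift74*, also lower in null liver, measured 19.9, 24.2 and 23.99 CPM in WT and 32.3, 19.2 and 18.03 CPM in null lungs, where null lung 1 was the highest of all 6 and the other null lungs were below WT. *Dync2h1* measured 19.2, 17.5 and 16.01 CPM in WT and 17.5, 18.6 and 15.2 CPM in null lungs, with overlap. Their interaction terms were 0.95 ± 0.32 and 0.76 ± 0.24, with adjusted p of 0.237 and 0.209, and without null lung 1 that of *Ift74* was 0.66 ± 0.21 (adjusted p 0.106). For *Invs* and *Ttc21b*, lower in both tissues, the terms were -0.29 ± 0.51 and -0.48 ± 0.54. Across the 52 genes the liver and lung log2 fold changes had the same sign for 35 (67.3%), as for 69.3% of all genes tested in both tissues, and Pearson's r was 0.61 over the 52 genes and 0.56 over all, where liver and lung came from the same mice and genes are not independent replicates. With null liver 1 and null lung 1 left out, r was 0.68 and 0.54.

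**Figure D5:**
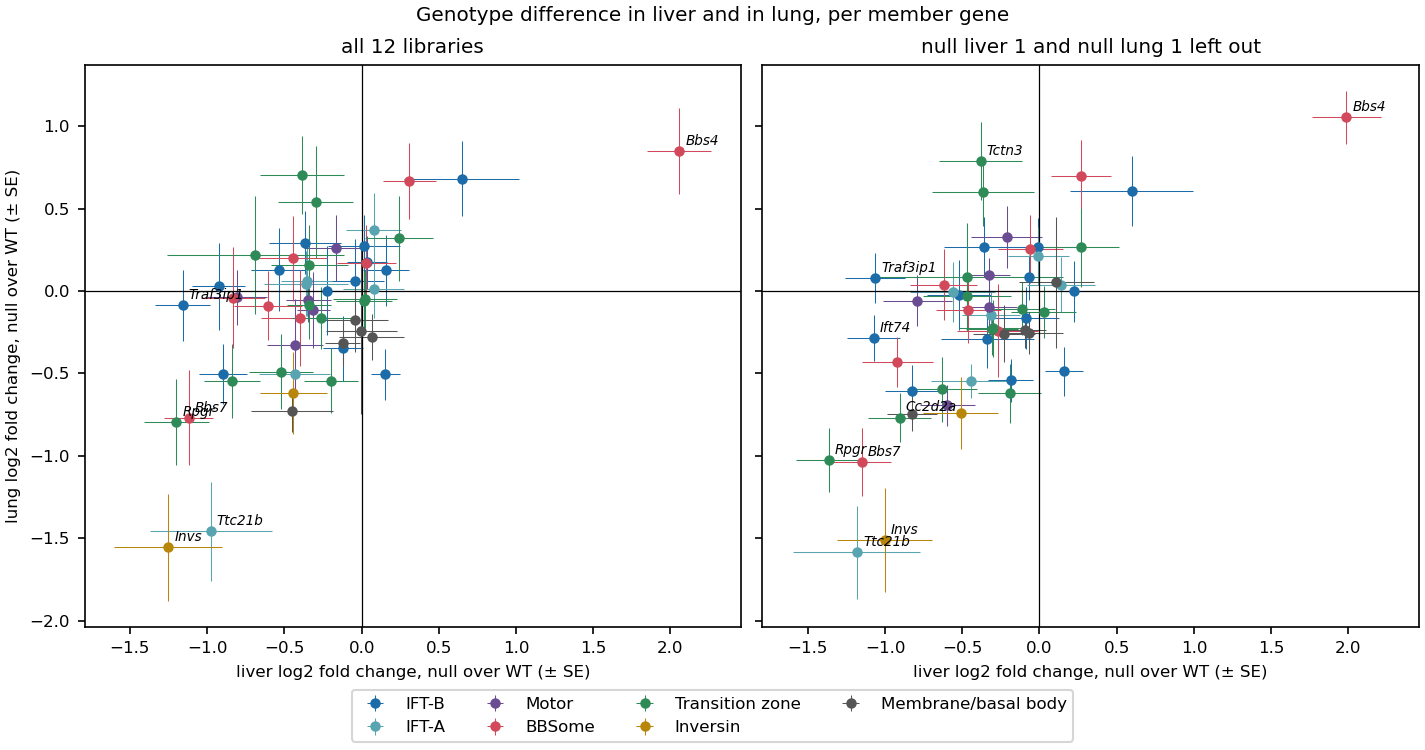
Log2 fold change of null over WT in liver (x axis) and lung (y axis) for each of the 52 genes, with ± SE bars, coloured by compartment, with all 12 libraries (left) and without null liver 1 and null lung 1 (right). Bbs4 lies alone at the upper right and Invs and Ttc21b at the lower left in both panels, while Traf3ip1 lies near 0 on the lung axis.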

How the data were processed

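RNA from the liver and lung of 3 WT and 3 null newborn mice was sequenced as stranded, polyadenylated libraries, and groups came from the sample labels. The authors deposited raw counts, whole reads per gene symbol, 1 table per library; their processing notes name STAR 2.5.2a, DESeq2, FastQC and mm10, while the counting program and its strand setting are not given in the sources used here. Names of 27 genes had become dates and were tested unnamed. Positions and lengths were taken from GENCODE M21 (GRCm38), promoters from RefSeq (GRCm38.p6).

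The tests used edgeR 4.0.16 under R 4.3.3 (filterByExpr, TMM, quasi-likelihood test, Benjamini-Hochberg adjustment over all tested genes). Called genes had an adjusted p under 0.05 and at least a 1.2-fold difference, with no minimum fold for the interaction. SE was derived from the log2 fold change and its F statistic. CPM of 3 reads was 0.0699 to 0.112. Replicates differed by more than sampling noise (lowest chi-square per gene 14.7). The test was tested on simulated data. DESeq2 1.42.0 was the alternative test, and other scalings, filters, a shared fit, a GC and length correction, the replicate block and leaving out each library were tried; fits without the libraries that stood apart by DESeq2, and without both in the interaction, were added after seeing the data.

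The 52 genes, the companions and the markers were chosen with earlier results of these data known. Named were all called genes, the largest difference per compartment and tissue, *Man1a2*, called companions, *Foxj1* and the Rfx genes; other names were chosen after their values were seen. Some called companions are not reported here by name. The 2 tissues came from the same mice, but the labels do not say that the numbers pair them. Deviations of the liver and lung libraries of 1 number correlated at 0.185 to 0.462 in all 6 pairs, highest for null liver 1 and null lung 1. Each deviation was taken from the mean of the 3 libraries of its group, so the pairs of a genotype are not independent. No correlation was computed between libraries of unlike number, so the pairing by number was not tested. WT and null mice are different animals.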

Additional observations from a re-analysis of the deposited data

How the results depend on the processing

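In liver the 52 genes gave 8 to 14 calls under the scalings, filters, tests and fits tried, against 10, and 6 to 12 when a library was left out. Companion calls in liver went from 4 to 10 when a library was left out, against 10. In lung, where no gene was called with all libraries, DESeq2 called 8 of the 52 and 6 companions, 1 fit of all 12 libraries called 7 and 7, and a minimum of 10 counts in every library called 0 and 1. Leaving out a library gave 0 to 17 of the 52 and 0 to 14 companions, and DESeq2 without null lung 1 called 20 and 16. The 17 and 14 came without null lung 1, where edgeR called 37% of all genes. Except where stated, the share of all genes called under the settings of this section is not reported here. Those counts are therefore not set against a background. The interaction gave 2 calls by DESeq2, 0 to 1 when a library was left out, and 1 with null liver 1 and null lung 1 both left out. WT lung against WT liver gave 36 to 45 calls, with 38 to 43 when a library was left out. With the replicate block, 10 of the 52 genes were called in liver, 0 in lung, 0 in the interaction and 43 between the WT tissues. Of the companions, 8 were called in liver and 0 in lung. Deviations of same-numbered WT and null libraries correlated at -0.0422 to 0.145. Unlike numbers were not compared, so whether such libraries share more than a number was not tested. Upper-quartile scaling lowered the median of all liver genes from 0.02 to -0.09 and called 1434 genes higher and 2666 lower, in place of 1931 and 1925. The sign of *Rfx3*, never called, turned in liver when a library was left out (-0.28 to 0.14), and in lung with the GC and length correction (-0.13) and when a library was left out (-0.047 to 0.24). The cause of these changes was not tested. Precision is limited by 3 libraries per group and, for *Nphp4*, by depth.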
